A study of Homo sapiens with 5 samples.

Results

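The FLAG-CBFB RIPseq set 1 immunoprecipitated library against 1 input library from the same cells, and the nuclear-encoded transcripts gained or lost between them are described here. CBFB is the subunit of the core binding factor that does not itself bind DNA and that stabilises its RUNX partners, and the study also examined it as a protein found with mRNA. RNA immunoprecipitation (RIP) recovers a tagged protein from lysate with an antibody and collects the RNA that comes with it. hnRNPK, examined in the same series, belongs to the poly(C)-binding proteins, whose KH domains prefer stretches of C in single-stranded RNA.

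Both libraries came from MCF10A, an established non-tumorigenic line of human breast epithelium, that expressed FLAG-CBFB from a transgene. The labels name no other treatment. The RIP was made with a FLAG antibody and the input with none. They were 2 of the 5 libraries of the series, next to the input of parental MCF10A cells and 2 hnRNPK RIP repeats from parental cells. The labels do not say whether the FLAG-CBFB cells also carried their own CBFB. For its protein pulldown the study made stable FLAG-CBFB lines from CBFB knockout MCF10A cells, and for the RIPseq it names MCF10A cells only. No FLAG immunoprecipitation from cells without the tag was analysed here, so binding to the beads or antibody alone was not tested. With 1 library per arm no test of the conditions was possible, and each ratio below compares these 2 libraries.

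The 37 genes of the mitochondrial genome were left out and the FPKM of all other genes was rescaled to 1000000 in each library, which is called scaled FPKM here. Of 56632 genes in the tables, 13077 were kept because they had 100 or more expected counts in the input. A gene was called gained or lost when its scaled FPKM in the RIP was at least 2-fold above or below that in the input. The input held 106855647 counts, of which 102296600 were nuclear-encoded, and the RIP held 90861717, of which 34365672 were. Mitochondrial genes took 4.27% of the input counts and 62.2% of the RIP counts, and the part of this shift in the ratios of other genes was not tested. Of 15 mammary epithelial and basal markers, 15 had 100 or more counts in the input, where their summed scaled FPKM was 7268, and it was 7222 in the RIP. Of 9 fibroblast markers 2 had 100 or more counts, and their summed scaled FPKM went from 16.4 to 25.2 between input and RIP, with COL1A2 and COL3A1 at 0 counts in the input. Of 8 blood and immune markers 3 did, with sums of 27.6 and 90.0 and CD3E and HBB at 0 counts. HBA1, a globin, had 3.77 and 69.0 on 112 input counts, a log2 ratio of 4.19, and the part of blood-type RNA in other results was not tested.

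The distribution was lopsided, with a long upper tail. The median log2 ratio of the 13077 genes was -0.55 and the quartiles were -0.93 and -0.18, while 17.6% of genes were above 0. In all, 849 genes (6.49%) were gained 2-fold or more and 418 (3.2%) 4-fold or more. On the other side 2756 genes (21.1%) were lost 2-fold or more and only 117 (0.895%) 4-fold or more. The 418 strongly gained genes made up 1.89% of scaled FPKM in the input and 24.1% in the RIP. Because the scale is a share of a fixed total, this gain lowers the ratio of every other gene, and with ratios centred on the median gene 1338 genes were gained and 527 lost 2-fold or more. With mitochondrial genes kept in the total, the median moved to -2.75 and 61 genes were gained 4-fold or more. Medians of gene lists are therefore also given relative to that of all genes.

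**Figure D1:**
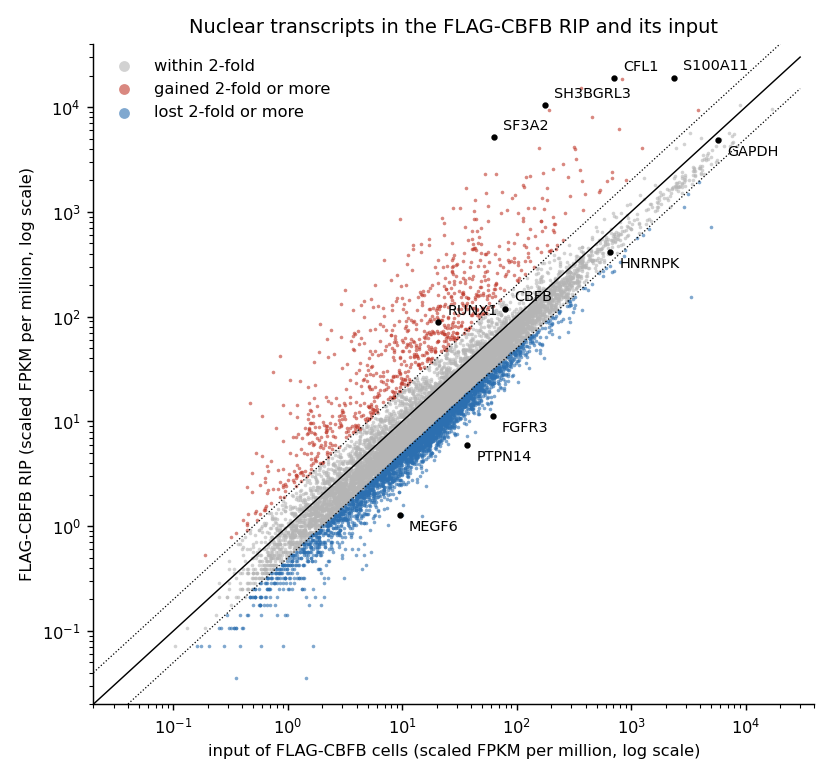
Scaled FPKM of 13077 nuclear-encoded genes in the input of FLAG-CBFB cells (x axis) and in the FLAG-CBFB RIP (y axis), both on log scales, with 1 library per axis; genes without a value above 0 in the RIP are not drawn, and labelled genes are black. The solid line marks equal levels and the dotted lines 2-fold, and the gained genes in red form a scattered cloud above the main band, reaching SF3A2 at 63.0 and 5152, whereas the lost genes in blue lie along the lower edge of that band.

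The most strongly gained mRNA under the naming rule was SF3A2, which encodes a subunit of the U2 snRNP that helps recognise the intron branch point. Its level was 63.0 scaled FPKM in the input and 5152 in the RIP, an 81.7-fold gain on 6484 and 184501 counts. SH3BGRL3, a small thioredoxin-fold protein, went from 176 to 10366, or 58.8-fold. PPDPF had 192 in the input and 9392 in the RIP, and G6PC3, a glucose-6-phosphatase of the endoplasmic reticulum, had 52.5 and 2312. These gains rested on 3730 or more counts in the input. The log2 ratio of SF3A2 was 6.35 with a 95% counting half-width of 0.04, which covers counting error only.

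Because hnRNPK prefers C-rich RNA, the 30 bases with the most C in the coding sequence are shown for 4 of the highest and 3 of the lowest named mRNAs. They were read from GENCODE 29 transcripts on GRCh38, each within 1 exon, 5′ to 3′ along the mRNA, with T for U. Runs of 3 or more C are in capitals. The read-through gene RPL17-C18orf32 was passed over. MMP24OS, which ranked between PPDPF and G6PC3 among the gained genes, is also not shown, and its window held 21 C.
SF3A2, gained, exon 9 of 9, chr19:2247970-2247999 on the plus strand, 19 C: gCCCCCgggaccaCCCCagctaCCCCCgcc
SH3BGRL3, gained, exon 2 of 3, chr1:26280874-26280903 on the plus strand, 16 C: tggcaggcaaCCCCaaggccaCCCCaCCCC
PPDPF, gained, exon 2 of 4, chr20:63521319-63521348 on the plus strand, 16 C: tCCCCtccagcggctcgctcgtggccaCCC
G6PC3, gained, exon 1 of 6, chr17:44071090-44071119 on the plus strand, 17 C: acttCCCCgcggcctactacgcctCCCgcc
MEGF6, lost, exon 1 of 37, chr1:3611143-3611172 on the minus strand, 18 C: ccgccgcggCCCCtgctCCCgctgcagCCC
SLC16A7, lost, exon 3 of 6, chr12:59704813-59704842 on the plus strand, 15 C: gccaagtgCCCCacctgtgcatccacctcc
PTPN14, lost, exon 13 of 19, chr1:214384131-214384160 on the minus strand, 19 C: gccaccgCCCCCCtaCCCacggccacgacc

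A C-rich window alone did not set gained genes apart, since the lost mRNAs of MEGF6 and PTPN14 held 18 and 19 C in such a window. Among 11805 protein-coding genes, 26.5% had 18 or more C in some 30 bases of coding sequence, against 60.9% of the 366 gained 4-fold or more and 32.7% of the 2452 lost between 2-fold and 4-fold. The median C content was 32.5% in mRNAs gained 4-fold or more, 29.8% in those gained 2-fold to 4-fold, 23.5% in those within 2-fold and 23.2% in those lost 2-fold to 4-fold. Runs of 4 or more C numbered 10.9, 8.35, 3.23 and 3.28 per kb in the same order.

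Grouped by C content, the quintile of mRNAs with the least C (median 18.1%) had 0.381% gained 2-fold or more, and the next quintiles had 1.10%, 3.85%, 6.10% and, at a median of 31.8% C, 20.2%. The step between the upper pair of quintiles was thus wider than the whole rise before it. Within the C-richest quintile the gained share lay between 18.2% and 24.1% in all 5 length groups. By chromosome, 70 of 872 kept genes on chromosome 19 (8.03%, median C content 30.01%) were gained 4-fold or more, and none of 218 on chromosome 13 (median 20.4%). Between them the order by C content was loose. Chromosome 22 had 3.55% gained at a median of 28.4% C, and chromosome 20 had 6.27% at 26.0%, beside 3.2% of all genes. Over all 11805 genes the correlation of C content with the log2 ratio was weak, with Spearman rho = 0.21 across genes of 1 pair of libraries, and it was -0.08 against the parental input.

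Transcript length went with loss. The share of mRNAs lost 2-fold or more was 4.57%, 10.1%, 15.6%, 28.8% and 48.3% from the shortest quintile (median 1247 nt) to the longest (median 6878 nt), with rho = -0.42 across genes. This did not hold against the other input of the series. When the same RIP library was set against the parental input, the lost shares were 13.7%, 15.5%, 14.1%, 16.3% and 20.7%, and rho was -0.01. The inputs themselves differed with length, as their log2 ratio had a median of -0.21 in the shortest quintile and 0.46 in the longest. The higher gained share at high C content was seen against either input, with 2.80%, 4.28%, 6.73%, 8.68% and 21.3% gained from the lowest to the highest quintile against the parental one. The lost share by C content turned with the input. From the lowest to the highest C quintile it was 23.7%, 23.4%, 21.5%, 21.1% and 17.7% against the own input, and 8.13%, 10.8%, 14.7%, 22.7% and 23.8% against the parental one. Cells and libraries differ together between the inputs, so a change of the cells and a difference in library preparation cannot be told apart.

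**Figure D2:**
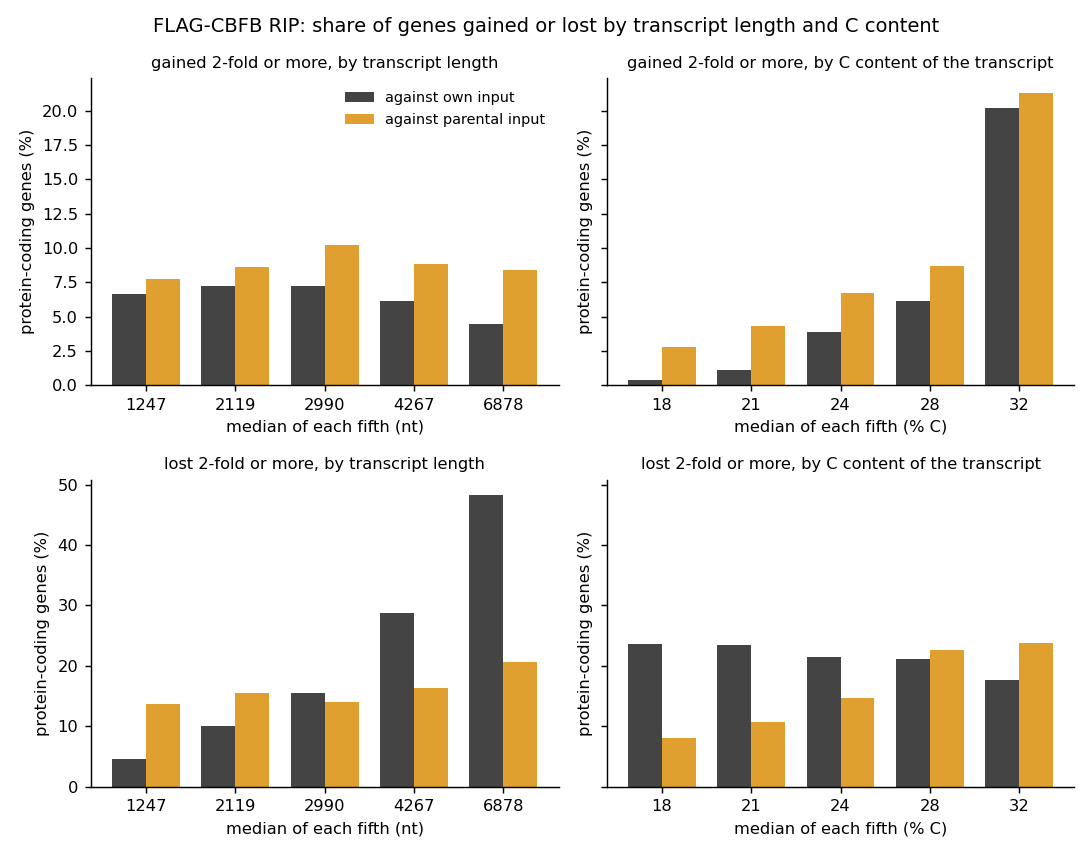
Share of 11805 protein-coding genes (y axis, percent) gained 2-fold or more (upper panels) or lost 2-fold or more (lower panels) in the FLAG-CBFB RIP, for quintiles of transcript length (left) and of C content (right), each labelled on the x axis by its median. Dark grey bars are ratios to the input of the same cells and orange bars ratios to the parental input, and the loss of long mRNAs is steep only in dark grey, from 4.57% to 48.3%, whereas the gain of the C-richest quintile is alike in both, at 20.2% and 21.3%.

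Against the parental input, 1167 genes were gained (8.93%) and 2154 lost (16.5%) 2-fold or more, and 517 were gained 4-fold or more (3.96%). These ratios share the RIP library with the main ones. Of the 849 genes gained 2-fold, 717 (84.5%) were also gained 2-fold or more against the parental input. Of the 2756 genes lost 2-fold, 918 (33.3%) were also lost 2-fold or more. For genes gained 4-fold, 402 of 418 (96.2%) were gained 2-fold or more against the parental input. For genes lost 4-fold, 72 of 117 (61.5%) were lost 2-fold or more against it. Between the inputs 1350 genes (10.3%) were 2-fold or more higher in the FLAG-CBFB cells and 545 (4.17%) lower. For this reason the numbers of lost genes in the lists below are given against both inputs, to be read beside the 21.1% and 16.5% of all genes lost against the own and the parental input. Gained counts stand beside 6.49% and 8.93% of all genes.

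The core binding factor genes themselves were represented. RUNX1, which encodes the DNA-binding partner of CBFB, had 20.6 scaled FPKM in the input and 89.0 in the RIP, a 4.32-fold gain, and its log2 ratio to the parental input was 2.67. The sign turned to -0.09 when mitochondrial genes stayed in the total. RUNX2 had 1.23 and 7.63, or 6.21-fold, and both were therefore among the 3.2% of genes gained 4-fold. CBFB mRNA had 78.8 and 119, a log2 ratio of 0.59 that did not reach 2-fold. The CBFB counts of these cells include any transgene transcript, which the table does not separate, and the parental input had 43.4. CBFB was thus gained more than 2-fold against the parental input, and its call turned with the input. Of the 4 kept core binding factor genes 2 were gained against the own input and 3 against the parental one. CBFA2T2, a corepressor gene of the related MTG family, was lost at 5.66 and 1.92, and its log2 ratio to the parental input was -1.34. GAPDH, often used as a reference transcript, had 5721 and 4829.

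The study picked 16 transcripts from its RIPseq for RIP with real-time PCR, so their direction here is not independent evidence. All 16 were gained 2-fold or more, and 12 of them 4-fold or more, with a median log2 ratio of 2.58. FOSL1, an AP-1 subunit also called FRA1, led them with 32.3 scaled FPKM in the input and 1095 in the RIP. GSK3A, a kinase of insulin and Wnt signalling, had 56.3 and 1146, and DROSHA, the nuclease that starts miRNA processing, had 43.4 and 450. The smallest ratio was that of SUFU, a restraint on Hedgehog signalling, with 6.07 and 13.1. The most abundant member was PKM, the pyruvate kinase of glycolysis, which had 1235 and 4037. The median log2 ratio of the own to the parental input over the 16 was 0.09, and all 16 were gained 2-fold against it.

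**Figure D3:**
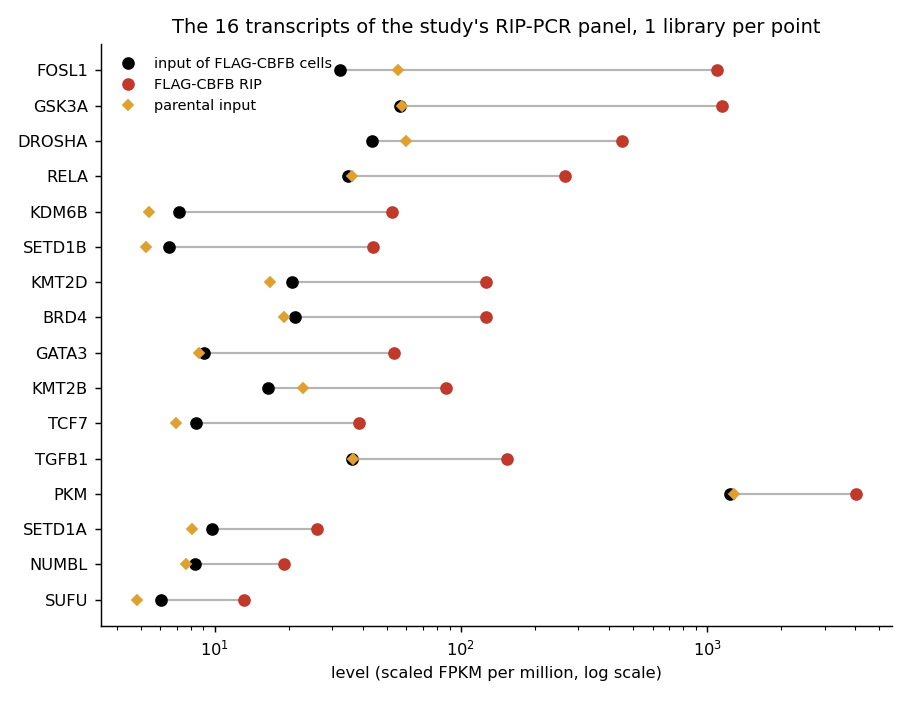
Scaled FPKM (x axis, log scale) of the 16 transcripts that the study followed by RIP-PCR, ordered by their ratio, in the input of FLAG-CBFB cells (black), the FLAG-CBFB RIP (red) and the parental input (orange diamonds), 1 library per point. Every red point lies to the right of both inputs, from SUFU at 13.1 to PKM at 4037, and the distance from the own input is longest for FOSL1.

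Several abundant mRNAs were gained. CFL1, the actin-severing protein cofilin, had 707 scaled FPKM in the input and 18835 in the RIP, and PFN1, the actin monomer binder profilin, had 781 and 6137. S100A11, a calcium-binding protein, had 2387 and 19125. PCBP2, which is itself a poly(C)-binding protein and a relative of hnRNPK, had 825 and 18355, so that the 4 kept mRNAs of this family took 0.173% of the input and 1.92% of the RIP. HNRNPK mRNA was on the other side at 659 and 418. Of the 4 poly(C)-binding genes 2 were gained, namely PCBP2 and PCBP1, the latter from 219 to 439, with a list median of 0.60, and 1 was gained against the parental input. Of 25 actin, tubulin and myosin light chain genes 2 were gained and 2 lost 2-fold, with 5 lost against the parental input, and of 14 S100 genes 3 were gained and 1 was lost, with 2 lost against the parental input. Relative to all genes the S100 list median was 0.42 with the own input and -0.03 with the parental one.

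Splicing factor genes were unevenly gained. Of 10 SF3A and SF3B genes, which build the U2 snRNP, SF3A2 and SF3B4 were gained 4-fold or more, the latter from 65.5 to 2292, and 1 other was gained 2-fold. The lowest member was SF3B2 at 144 and 89.2. SNRPA, which encodes a U1 snRNP protein, had 141 and 1093, yet the median of 24 Sm and LSm genes was -0.19 with 2 gained and 1 lost, and 2 lost against the parental input. None of 27 hnRNP genes was gained and 3 were lost against the own input, with 1 gained and 3 lost against the parental input. Their median of -0.55 with the own input equalled that of all genes.

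Regulators of transcription included both gained and lost genes. Of 21 immediate early genes, which respond within minutes to growth factors, 5 were gained and 2 lost 2-fold, and their median of 0.01 was the highest of the functional lists with 10 or more kept genes, 0.57 above all genes. ZFP36 and ZFP36L1, which bind AU-rich elements and destabilise mRNA, had 96.8 and 1436, and 90.7 and 1350. EGR1 had 206 and 2571, and EGR3 6.20 and 43.1, while SRF was lost at 24.6 and 10.1, and its log2 ratio to the parental input was -1.02. Against the parental input 1 of the 21 was lost. MYC, the most abundant of the list, had 583 and 329. Among 16 AP-1 genes 4 were gained, with FOSL1 and ATF5 past 4-fold along with ATF3, and 4 were lost, the lowest being MAFK at -1.39, or -1.52 against the parental input, where 2 of the 16 were lost. ATF3 was at -0.03 against the parental input and is thus gained against 1 input only.

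Of 43 homeobox genes 7 were gained (16.3%) and 7 lost (16.3%), the lost share lying below that of all genes, and 4 were lost against the parental input. Relative to all genes the homeobox list median was 0.41 with the own input and 0.35 with the parental one. HOXA4 had 6.39 and 84.6, HOXA3 5.23 and 46.7, and CUX1 32.02 and 215, whereas BARX2 had 1.94 and 0.177 on 233 and 8 counts. CUX1 had 9006 and 9786 counts, so its scaled FPKM rose more than its share of nuclear-encoded counts. BARX2 was at 2.72 against the parental input, which held 2 counts. Of 415 genes with ZNF or ZFP names, mostly C2H2 zinc finger factors, 14 were gained (3.37%) and 123 lost (29.6%), against 6.49% and 21.1% of all genes. ZNF580 at 22.2 and 866 and ZNF385A at 12.4 and 481 stood highest, and ZNF813 at 2.08 and 0.284 was the lowest. ZNF813 was at -2.34 against the parental input. There 67 of the 415 (16.1%) were lost and 26 (6.27%) gained, against 16.5% and 8.93% of all genes, so the excess of losses was not seen with that input. POLR2A, the largest subunit of RNA polymerase II, had 28.5 and 390, but 47 polymerase and general factor genes had a median of -0.54.

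Several H3K4 methyltransferase genes were gained. SETD1B had 6.52 and 43.7, KMT2D 20.6 and 126, KMT2B 16.5 and 86.8, and the coactivator subunit gene NCOA6 20.8 and 118. They were the members past 4-fold, 6 of 18 were gained (33.3%) and 4 lost (22.2%, near the share of all genes), with 2 lost against the parental input, and WDR82, a subunit that couples SETD1 complexes to the polymerase, was lowest at 66.0 and 29.8, or -0.74 on the log2 scale against the parental input. KMT2B, KMT2D, SETD1A and SETD1B are among the 16 transcripts the study chose. By contrast 11 of 19 other histone lysine methyltransferase genes were lost and 2 gained, with ASH1L lowest at 17.6 and 5.82 and at -0.57 against the parental input. Against the parental input 6 of these 19 were lost, and the list median was 0.53 below all genes with the own input and 0.36 below with the parental one. KDM6B, an H3K27 demethylase and another chosen transcript, was the 1 demethylase gained, at 7.18 and 52.6, while 9 of 22 were lost, and 2 against the parental input.

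In the NF-kappaB list BCL3 had 12.2 and 280 and RELA, the transactivating subunit p65, had 34.7 and 266, while REL had 5.66 and 1.24 but was at -0.07 against the parental input. Of the 17 genes 3 were gained (17.6%) and 5 lost (29.4%), with 4 lost against the parental input. The Wnt list had 7 of 33 gained (21.2%) and 8 lost (24.2%, near the share of all genes), with 6 lost against the parental input, and was led by TCF7L1 at 4.63 and 141, with GSK3A, TCF7 and TCF7L2 also past 4-fold. In the Notch list NCSTN, a gamma-secretase subunit, had 102 and 975, and 3 of 25 were gained and 9 lost, with 6 lost against the parental input. TGFB1 had 36.2 and 153, and SMAD4, the shared SMAD, had 55.3 and 14.9 and was at -1.11 against the parental input.

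**Figure D4:**
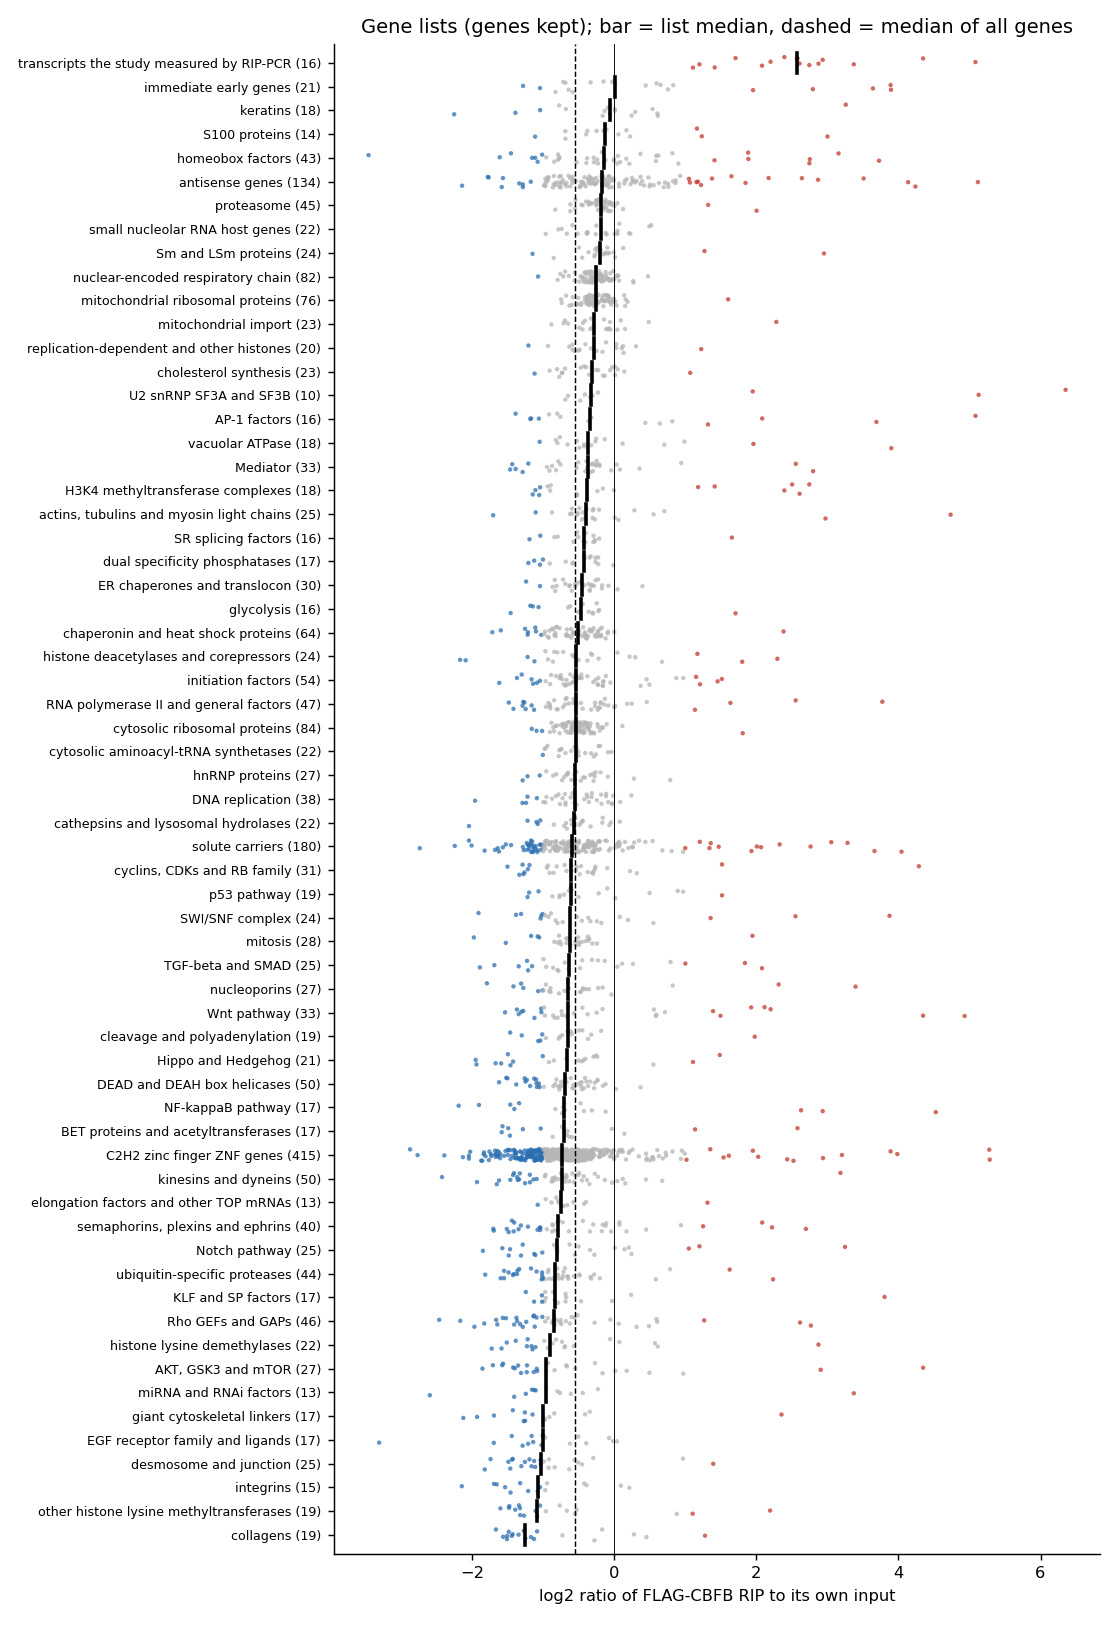
Log2 ratio of the FLAG-CBFB RIP to its own input (x axis) for every kept gene of each list with 10 or more such genes, lists ordered by median, with the number of genes in brackets; points are genes, red gained and blue lost 2-fold or more, and black bars are list medians. The panel of 16 chosen transcripts stands apart at 2.58, the other medians run from -1.25 for collagens to 0.01 for immediate early genes around the dashed line at -0.55, and gained genes are single points scattered over many lists.

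Genes of adhesion, matrix and growth factor receptors had some of the lowest list medians. Of 19 collagen genes 13 were lost (68.4%) and 1 gained, and their median was -1.25. This share and those of the next lists are to be read beside the 21.1% of all genes and the 48.3% of the longest mRNAs lost. COL17A1, the hemidesmosomal collagen and the most abundant, had 325 and 128. Of 15 integrin genes 9 were lost (60.0%), with ITGB4, the hemidesmosomal chain, at 604 and 294, and of 25 desmosome and junction genes 14 were lost (56.0%), with periplakin (PPL) lowest at 42.7 and 12.1. Of 17 genes of EGF receptors, ligands and adaptors 10 were lost (58.8%), and ERBB4 was lowest at -3.31 on 109 and 13 counts. The scaled FPKM of ERBB4 fell more than its share of nuclear-encoded counts. Of 27 AKT, GSK3 and mTOR genes 13 were lost (48.1%) and 2 gained.

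Fewer of these genes were lost against the parental input: 5 of the collagen (26.3%), 3 of the integrin (20.0%), 2 of the 25 junction, 3 of the EGF receptor (17.6%) and 3 of the AKT genes (11.1%). Beside the 16.5% of all genes lost against that input, these shares were near or below it for all of these lists but the collagens and integrins. Relative to all genes the list medians with the own and the parental input were -0.70 and -0.20 for collagens, -0.52 and 0.10 for integrins, -0.48 and -0.03 for junctions, -0.45 and 0.17 for the EGF receptor list and -0.40 and 0.04 for the AKT list. The giant cytoskeletal linkers, among them FLNA at 318 and 161 and UTRN at 12.04 and 2.77, were 0.45 below all genes with the own input and 0.67 below with the parental one, with 8 and 9 of 17 lost. Median transcript lengths of these lists were 6427 nt for collagens, 4888 nt for integrins and 9463 nt for the linkers, and their part in the losses was not tested.

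The lowest protein-coding genes under the naming rule also differed between inputs. MEGF6, a secreted protein with EGF-like repeats, had 9.56 scaled FPKM in the input and 1.28 in the RIP on 1863 and 115 counts, a 7.48-fold loss, and was at -2.02 against the parental input. TNRC6C, a partner of Argonaute in miRNA silencing, had 2.996 and 0.497, or 6.03-fold, and stood at -1.85. PTPN14, a tyrosine phosphatase that binds YAP, had 37.0 and 5.96 but only -0.97 against the parental input, and FGFR3, a fibroblast growth factor receptor, had 61.7 and 11.3 but 0.87. FGFR3 was thus lost against one input and higher than the other, since the parental input had 6.19. RPL17-C18orf32, the lowest of these at -4.42, is a read-through gene that overlaps RPL17, which was gained from 687 to 2409 but was at -0.50 against the parental input, and the split of reads between them is uncertain.

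**Figure D5:**
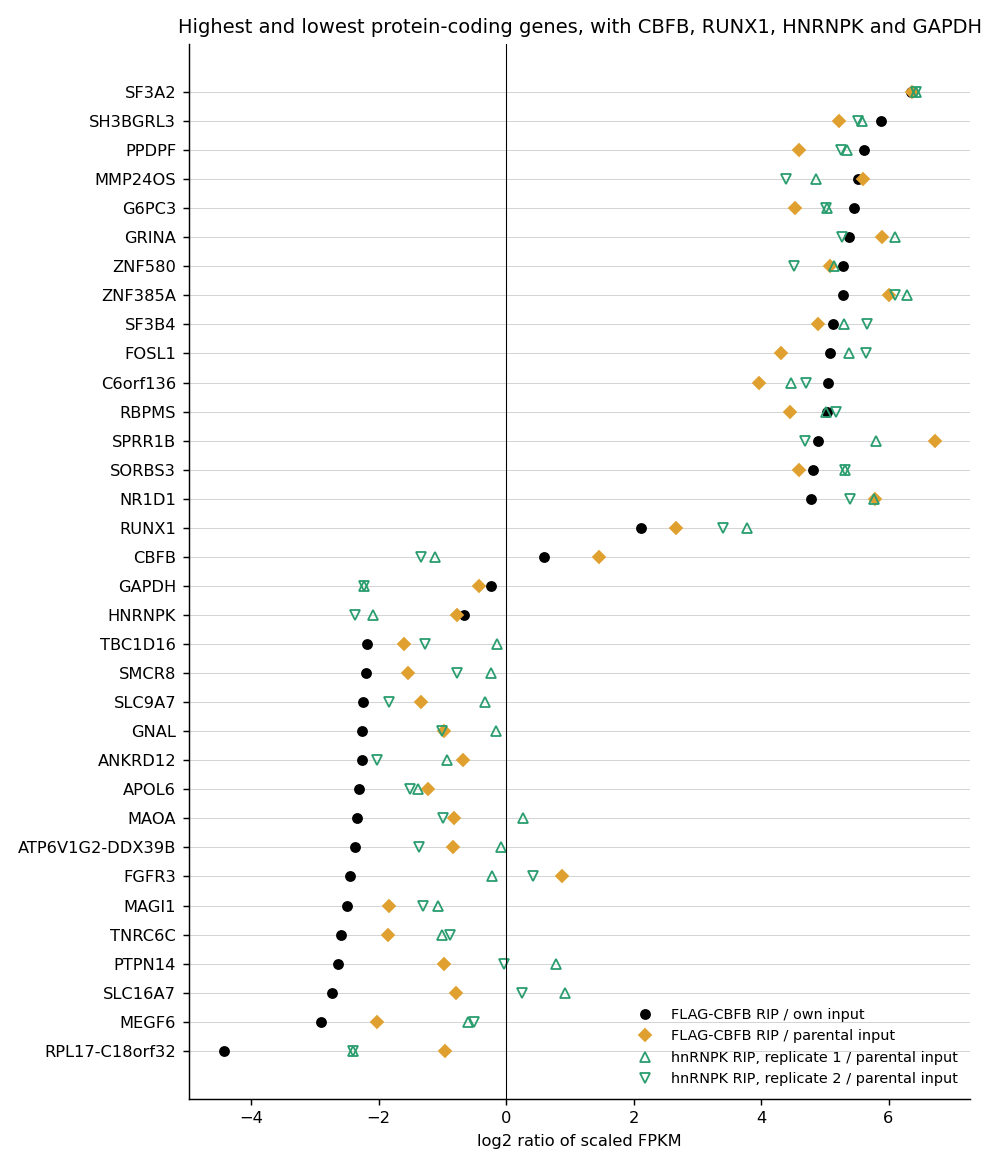
Log2 ratio of scaled FPKM (x axis) for the 15 highest and 15 lowest protein-coding genes of the FLAG-CBFB comparison and for CBFB, RUNX1, HNRNPK and GAPDH: FLAG-CBFB RIP to its own input (black circles) and to the parental input (orange diamonds), and the hnRNPK RIP repeats to the parental input (green triangles), 1 library per term. The 15 gained genes lie at 3.97 or above in all 4 comparisons, while each of the 15 lost genes lies nearer to 0 against the parental input and FGFR3 passes 0, at 0.87.

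Cytosolic ribosomal protein and initiation factor genes stayed close to the median of all genes, and other housekeeping lists lay somewhat above it. The 84 cytosolic ribosomal protein genes had a median of -0.54 with 1 gained and 3 lost, or 5 lost against the parental input, and together they went from 25.3% to 17.4% of the library. Of 54 initiation factor genes 4 were gained and 7 lost, or 4 lost against the parental input, with EIF1AD highest at 17.8 and 50.8. PABPC1, the cytoplasmic poly(A)-binding protein, was gained from 3811 to 9475, and EEF1A1, the most abundant elongation factor mRNA, had 17034 and 9687. Proteasome genes (median -0.18, 2 of 45 gained, none lost), mitochondrial ribosomal protein genes (median -0.26, 1 of 76 gained, none lost) and nuclear-encoded respiratory chain genes (median -0.25, none of 82 gained, 1 lost) were 0.29 to 0.37 above all genes. With the parental input they were 0.10 to 0.24 below all genes, so the direction relative to all genes turned with the input, and 4, 14 and 6 of them were lost. Their median transcript lengths were 1544, 1274 and 843 nt.

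Epithelial genes gave mixed values. The keratin list median was 0.49 above that of all genes with the own input and 0.10 above with the parental one. Of 18 keratin genes 1 was gained and 3 were lost, with 3 gained and 3 lost against the parental input: KRT80 had 0.526 and 5.04 and KRT15, the most abundant, had 2911 and 1112. KRT15 was at 0.96 against the parental input and KRT80 at 0.66, so neither call held against it. SPRR1B, a cornified envelope precursor of squamous cells, was among the 15 highest at 43.5 and 1290. HSPB1, a small heat shock protein, had 373 and 1950, and it was the 1 gained gene of 64 on the heat shock and chaperonin list.

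Noncoding RNAs were kept in smaller numbers. Of 572 long noncoding genes 52 were gained (9.09%) and 74 lost (12.9%), against 6.49% and 21.1% of all genes, with a median of -0.26. Against the parental input 67 were gained (11.7%) and 111 lost (19.4%), against 8.93% and 16.5%. The highest were LINC02407 at 3.14 and 181 on 106 and 1771 counts, AC133550.1 at 27.9 and 1083, and VPS9D1-AS1 at 11.2 and 387. The lowest was AL731577.2 with 129 and 5 counts, at -3.01 against the parental input. The strand setting of the authors' counting is not given in the sources used here, so reads of antisense genes and of the genes they overlap cannot be told apart. None of 22 small nucleolar RNA host genes was gained or lost, but 6 were lost against the parental input. Of 9 nuclear-retained long noncoding RNAs 5 were lost and none gained, while 1 was lost against the parental input. HOTAIRM1, NEAT1, JPX and MALAT1 were not lost, with log2 ratios of 0.28, -0.17, -0.18 and -0.23, above the median of all genes. NORAD, which is on that list although it is known to act in the cytoplasm by binding Pumilio proteins, had 138 and 55.5 but was at 0.36 against the parental input. All 5 nuclear pseudogenes of mitochondrial genes were gained, with a median of 5.13, and they share reads with the mitochondrial genome. In the RIP 7 genes had no counts. The input counts of these 7 ran from 117 to 800, and at a floor of 3 counts in the RIP they were at least 13.9-fold to 93.9-fold lower.

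hnRNPK RIP from parental cells gave a readout that shares no library with the FLAG-CBFB comparison, although its 2 repeats share the parental input. In both repeats 936 of 13065 genes (7.16%) were gained 4-fold or more. They included 376 of the 418 genes gained 4-fold with FLAG-CBFB (90.0%), which is 40.2% of the hnRNPK list. Median log2 ratios of the 418 in the repeats were 3.97 and 3.89, against -0.93 and -0.96 over all kept genes. None of the 418 was below 0 in both repeats, beside 8907 of all 13077 kept genes (68.1%), and RUNX1 was at 3.78 and 3.40. Whether the shared gains come with either protein or with the RIP procedure was not tested. The genes lost 2-fold had medians of -0.87 and -0.97 in the hnRNPK repeats, near those of all genes.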

How the data were processed

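RNA from FLAG immunoprecipitation and from input lysate was sequenced with a TruSeq mRNA kit, 1 library each. The submitters' processing notes name Trimmomatic, STAR, RSEM and hg19, and the annotation release, versions and strand setting are not given in the sources used here. The authors deposited RSEM expected counts per gene, which need not be whole, and FPKM rounded to 2 decimals, which RSEM normalises to length and library total. Deposited TPM and an extra column of hand-written symbols were not used.

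Mitochondrial genes were dropped, FPKM was rescaled to 1000000 per library, and log2 ratios were taken for genes with 100 or more expected counts in the input. Where FPKM was rounded to 0 the level was rebuilt from the count and effective length. A RIP count of 0 was set to a floor of 3 counts. With 1 library per arm, no count model was used for a test. Intervals cover counting error only, since no molecular identifiers were used. The members and gene lists were chosen with earlier results of these data known. Named genes were CBFB, RUNX1, HNRNPK and GAPDH, the 15 highest and 15 lowest protein-coding genes with 1000 or more input counts and an effective length of 300 or more, the 5 highest and lowest long noncoding genes, and per list the highest, lowest, most abundant and each member past 4-fold. Other genes named were chosen after their values were seen. Gene types and sequences came from GENCODE 29 on GRCh38, whose coordinates differ from those of hg19. The ratio was run on simulated counts with equal effective lengths in both libraries. There the ratios were centred on the unchanged genes, so the run does not check the uncentred gained and lost calls.

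Alternatives covered the total, centring, TMM (edgeR 4.0.16), size factors (DESeq2 1.42.0), a pseudocount of 1, count minimums of 10, 1000 and none, gene type, effective length, mitochondrial pseudogenes and the parental input. Another 3 were chosen after seeing the data: levels from counts and effective lengths, effective lengths within 1.5 times of each other, and the 100 highest RIP genes left out. Python 3.11.15, pandas 2.3.3, scipy 1.17.1 and R 4.3.3 were used. Some items are not reported here.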

Additional observations from a re-analysis of the deposited data

Results flagged for a closer look

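Among the genes named by the rule given with the processing, 8 changed 2-fold or more one way with FLAG-CBFB relative to the own input and 2-fold or more the other way in both hnRNPK RIP repeats against the parental input. Over all kept genes, 77 of the 2756 lost 2-fold with FLAG-CBFB (2.79%) were gained 2-fold in both repeats. That share was below the 1723 of all 13077 kept genes (13.2%) gained 2-fold in both. None of these differences was tested, since there was 1 FLAG-CBFB library per arm, and the inputs differ. RPL17 stood at 1.81 on the log2 scale with FLAG-CBFB, against -2.22 and -2.003 with hnRNPK, and its reads overlap those of RPL17-C18orf32. ASH1L had -1.60 against 1.804 and 1.41, and ZNF460 had -2.04 against 1.70 and 1.13. REL had -2.19 against 3.29 and 2.66, on 1082 counts in the own input and 179 in the parental input. BARX2 had -3.45 against 3.05 and 3.76, but the parental input held 2 counts and the hnRNPK repeats 3 and 5. ARHGEF35 had -2.46 against 1.53 and 3.27. FTX had -1.81 against 1.95 and 1.57. KDR had -1.60 against 1.24 and 1.37, on 115 and 18 counts in the FLAG-CBFB libraries.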

How the results depend on the processing

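No paired analysis was possible because each arm held 1 library, and for that reason no replicate could be left out. With mitochondrial genes in the total, 61 genes were gained and 11325 lost 4-fold, 165 were gained and 12336 lost 2-fold, the median was -2.75, 5.17% of the C-richest quintile was gained and 100% of the genes gained 4-fold were shared with hnRNPK. That total reversed ATF3 (-0.11), EIF1AD (-0.68), PABPC1 (-0.88), PCBP1 (-1.19), PKM (-0.49), RPL17 (-0.39), RUNX1 (-0.087), SETD1A (-0.78), SUFU (-1.09), TCF7L2 (-0.080) and TGFB1 (-0.12). Centred on the median (then 0), 1338 genes were gained and 527 lost 2-fold, 43 were lost 4-fold, and the C-richest and shared percentages were 26.9 and 82.8. TMM and DESeq2 factors gave 748 and 735 lost 2-fold, 34 and 36 lost 4-fold, medians of -0.13 and -0.12, 25.1% and 25.2% of the C-richest quintile gained, and 85.1% and 84.7% shared. A pseudocount of 1 gave 1746 lost 2-fold, 22 lost 4-fold and 92.4% shared. A minimum of 10 counts gave 642 gained 4-fold, 1395 gained 2-fold, 383 lost 4-fold, rho = -0.37 with length and 82.4% shared. A minimum of 1000, which leaves fewer genes, gave 264, 525 and 42 with 17.7% and 92.0%. No minimum gave 1179, 2759 and 325, a median of -0.42, rho = -0.36, 25.9% and 63.8%. Leaving out the 100 highest RIP genes gave 1804 lost 2-fold and a median of -0.39. Against the parental input rho with length was -0.00171 and 6 functional lists, in place of 12, lay 0.4 or more from all genes. With the minimum of 100 counts applied to that input, list medians relative to all genes reversed for EGF receptors (0.19), AKT (0.074), integrins (0.14) and junctions (0.0045), as did ATF3 (-0.035), FGFR3 (0.87), KRT15 (0.96), NORAD (0.36) and RPL17 (-0.50). The causes were not tested. Of the list medians relative to all genes, 798 of 928 moved by less than 0.1 on the log2 scale. Rescaling or centring a library cannot move these values, so part of that count was fixed in advance. Over the 62 lists, 45 medians moved or reversed with the parental input and 53 with no count minimum.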
